A study of Mus musculus with 35 samples.

Results

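Axon guidance ligands and receptors were followed in mouse neuroectoderm cells that carried normal, catalytically inactive or deleted Tet3. The genes were taken by symbol from the deposited gene expression tables, as every Eph receptor, ephrin, lettered semaphorin, plexin, Robo, Slit, netrin, Unc5 receptor, Dcc and neuropilin listed there. This gave 68 of the 18930 genes in any table, namely 14 Eph receptors, 8 ephrins, 20 semaphorins, 8 plexins, 2 neuropilins, 3 Slits, 4 Robos, 4 netrins and 5 netrin receptors. The genes were matched by symbol alone, but the gene families were chosen with earlier results of these data known. 68 were listed in the day 3 and Dnmt1 tables and 67 in the Tet3-CD table, where Ntn5 had no row.

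The cells were V6.5 male embryonic stem cells of mixed 129 and C57BL/6 background, kept in serum and LIF and then moved to 1 µM retinoic acid without LIF for 72 hours. Tet3+/+ cells are called WT, Tet3m/m cells with substitutions in the iron binding site of TET3 are called Mut, and Tet3-/- cells, with Tet3 exon 4 deleted, are called KO. The day 3 experiment had 3 WT, 3 Mut and 2 KO samples, which came from separate clones according to the methods. The Dnmt1 experiment had 2 samples of each genotype with an empty vector and 2 with a myc-Dnmt1 vector, transfected on day 0 and selected with blasticidin for the last 24 hours, and the Tet3-CD experiment had 1 sample of each genotype with an empty vector and 1 with the HA-tagged Tet3 catalytic domain, transfected on day 2. According to the methods the Tet3-CD cells were collected 48 hours after transfection, whereas the labels give 72 hours of retinoic acid for every sample. Which clones were transfected was not given in the sources used here, so a genotype in either vector experiment may be 1 clone. Values are RNA-seq counts divided by DESeq2 size factors, called normalized counts.

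Growing axons and migrating cells read guidance cues through 4 large ligand and receptor systems. Ephrins are tethered to the membrane and bind Eph receptor tyrosine kinases on the neighbouring cell, usually as a repulsive signal. Semaphorins signal through plexins, and most of the secreted class 3 semaphorins also need a neuropilin. Slits repel through Robo receptors, and netrins attract through DCC or repel through UNC5 receptors. Many of these genes are active in early embryos well before axons form, in boundary formation, cell sorting and vessel growth. TET3 oxidizes 5-methylcytosine, mostly at CG dinucleotides, and DNMT1 copies CG methylation onto the new DNA strand after replication.

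The number of recovered reads ranged from 36594650 to 47710548 per day 3 sample, from 31155842 to 50845950 per Dnmt1 sample and from 33475041 to 37707719 per Tet3-CD sample. Tet3 itself had 4613, 4576 and 5020.0 normalized counts in WT, 2666, 2277 and 1945 in Mut and 1796 and 2329 in KO on day 3. In the Dnmt1 experiment with the empty vector it had 2957 and 3075 normalized counts in WT, 1125 and 964 in Mut and 2520.3 and 2571 in KO-labelled samples, so the KO-labelled samples there differed little from WT (log2 fold change -0.24, SE 0.08, adjusted p = 0.011). The count covers exons outside the deleted one and therefore checks the KO label in part only, and these 4 samples are called KO-labelled below. With the empty vector and with the Tet3 catalytic domain, in that order, Tet3 had 4755 and 5441 in WT, 1849.9 and 5232 in Mut, and 2069.8 and 2759 in KO. Dnmt1 rose with its vector in each genotype, by 0.64 on the log2 scale in WT, 0.90 in Mut and 1.06 in KO-labelled samples. Markers were used as a check of the labelled cell type. The neural progenitor genes Sox1 (253 to 3013 normalized counts), Pax6 (879.8 to 2063) and Nes (6667 to 21181) were present in every day 3 sample. Others were low, namely Fabp7 (5.06 to 83.1), Hes5 (0 to 243) and Otx2 (0 to 69.2). The last 2 were at 0 in 1 of 8 samples each. Markers of pluripotent cells were present in every day 3 sample too, such as Pou5f1 (543 to 2743) and Nanog (709 to 3760). They summed to 7010 to 11556 in WT, 9974 to 25401 in Mut and 5461.5 to 9932 in KO. Extraembryonic endoderm markers summed to 100483 to 135259 in WT, 114282 to 160700 in Mut and 138660 to 154410 in KO on day 3. The markers did not move together in KO. Sparc (44754 and 50438 in KO, 22216.5 to 33872 in WT), Lamb1 and Gata6 were above every WT sample in both KO samples. Gata4 (442 and 701 in KO, 867 to 1155 in WT), Sox17, Sox7, Foxa2, Lama1, Afp, Ttr and Cubn were below every WT sample. Dab2, Col4a1 and Col4a2 overlapped WT. The share of each cell type was not measured. The other samples of the series were not used here.

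Guidance genes were expressed at very different levels in WT cells on day 3. Levels between genes are given as normalized counts per kilobase of exon, the mean of 3 WT samples with their range. Plexins and ephrins led, with Plxnb2 at 1968 (1899 to 2033), Efnb1 at 1599.8 (1546 to 1695), Efnb2 at 1479 (1293 to 1706) and Plxna1 at 1462 (1428 to 1512). Plxnb2 stood above the range of the others, while the ranges of Efnb1 and Efnb2 overlapped, as did those of Efnb2 and Plxna1. Among the netrin receptors Unc5b had 1306 (1104 to 1585) and Unc5a 309 (233 to 385). The highest Eph receptors were Ephb4 at 1079 (975 to 1219) and Epha2 at 724 (544 to 816), receptors of vessels and of early epithelia. Sema4c at 594 (571 to 616) and Sema3c at 574 (499.7 to 672) led the semaphorins and had overlapping ranges. Ntn1 reached 468 (409 to 522) and Ntn3 117 (105 to 138), Robo1 reached 382 (356 to 415) and Robo3 65.2 (49.9 to 83.6), and Slit3 reached 154 (149 to 161) and Slit2 116 (107 to 127). Nrp2 and Nrp1 had nearly the same mean, 184 (172 to 208) and 183 (126 to 217). At the low end Epha5 had 0.91 and Unc5d 2.57 normalized counts per kilobase. The same WT genotype differed between experiments, and Unc5a had 22.5 normalized counts per kilobase in empty-vector WT cells of the Dnmt1 experiment and Robo3 2.65. The tables were normalized separately, so these levels are set side by side without a test.

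Robo3, Unc5a, Epha3, Plxna4 and Unc5c, each a receptor, were among the guidance genes lower in Mut than in WT on day 3. The Mut samples also had less Tet3 RNA than WT, as given above. The part of the lost TET3 activity in these differences was not tested. Of the 68 genes, 14 fell and 5 rose in Mut, at an adjusted p below 0.05 and a fold change above 1.5 by limma. Those that fell were 9 receptors (Robo3, Unc5a, Epha3, Plxna4, Unc5c, Epha10, Ephb6, Epha1 and Epha7) and 5 ligands (Sema3a, Slit2, Sema6d, Sema4f and Efnb1), and those that rose were Ntn1, Epha4, Sema3e, Epha2 and Slit1. Among all 17915 genes tested the same rule called 5.19% lower, 5.06% higher and 10.2% in either direction. The median log2 fold change of the 68 was -0.14, and 41 of them were below 0. These are bulk samples, in which fewer cells of a type and less RNA per cell cannot be told apart. Without WT replicate 3 the calls dropped to 9 lower and 3 higher.

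**Figure D1:**
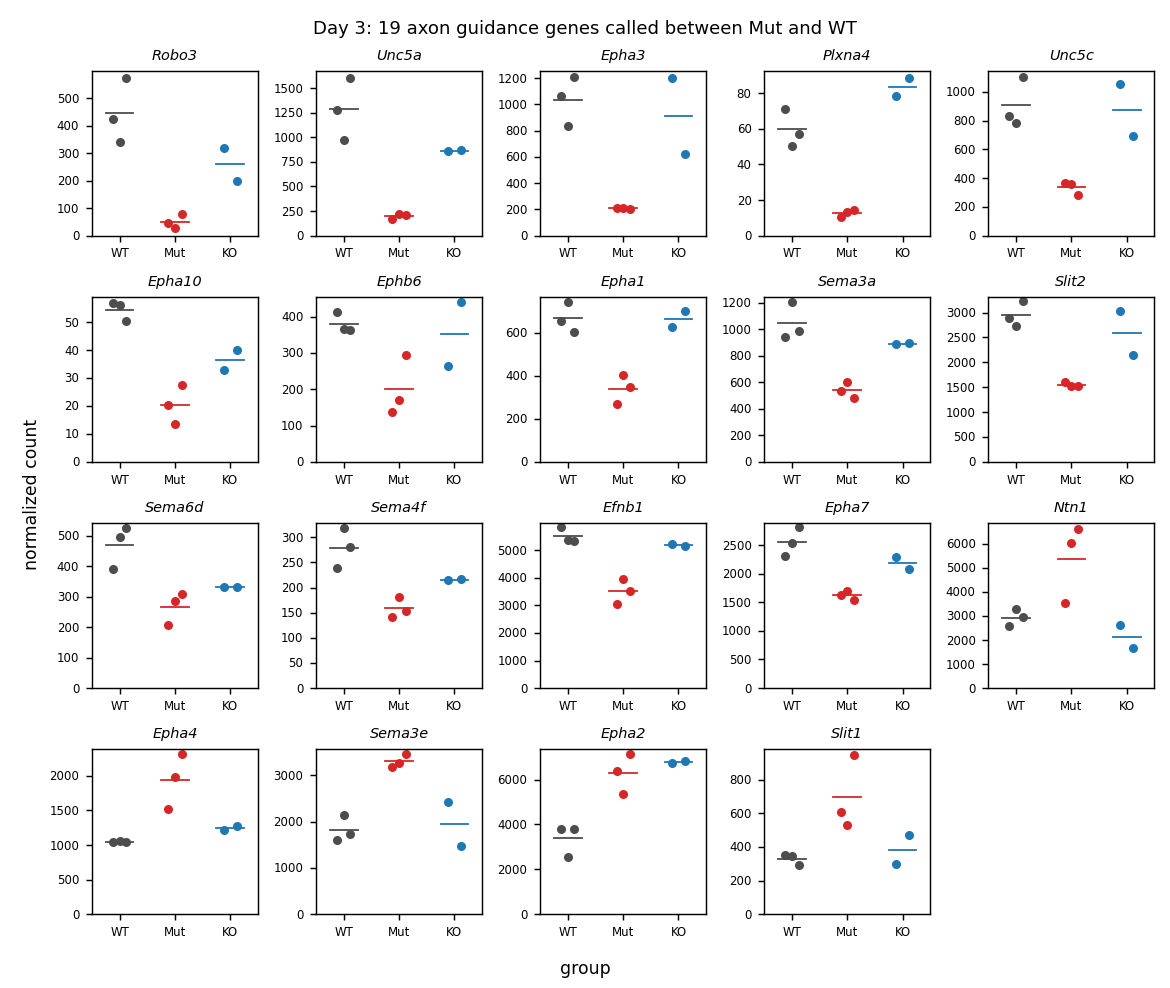
Normalized counts (vertical axes, from 0) of the 19 guidance genes called between Mut and WT on day 3, ordered by log2 fold change, with 1 point per sample and a line at the group mean of 3 WT, 3 Mut and 2 KO samples. The 3 Mut samples of the first 14 genes lie below the 3 WT samples, and those of the last 5 lie above them.

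Among the netrin receptors, Unc5a and Unc5c fell in Mut and the other 3 were not called. Unc5a had 1281, 973 and 1606 normalized counts in WT, 170.0, 223 and 214 in Mut and 858 and 868 in KO. Every Mut sample was below every WT and KO sample (log2 fold change -2.64, SE 0.19, adjusted p = 6e-05). Both genes encode receptors that turn the netrin signal into repulsion. Unc5c had 836, 782 and 1107 normalized counts in WT, 365, 359 and 286 in Mut and 1052 and 691 in KO, and its Mut samples were likewise the lowest of all 8 (log2 fold change -1.42, SE 0.19, adjusted p = 0.0011). Dcc, the attractive netrin receptor, had 176, 189 and 251 normalized counts in WT, 176, 137 and 95.7 in Mut and 214 and 143 in KO and was not called (log2 fold change -0.62, adjusted p = 0.17). Ntn1, the founding secreted netrin, rose, with 2567, 3277 and 2962 normalized counts in WT, 3521, 6034 and 6622 in Mut and 2633 and 1659 in KO (log2 fold change 0.83, SE 0.23, adjusted p = 0.037). Its Mut samples were spread widely and the call was lost in 5 of the 8 fits that left out 1 sample.

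In the Slit and Robo system Robo3 showed the largest fall of the 68 genes. Robo3, a divergent Robo receptor known from commissural neurons, had 425, 342 and 572 normalized counts in WT, 45.1, 26.1 and 80.4 in Mut and 319 and 200.4 in KO (log2 fold change -3.23, SE 0.38, adjusted p = 0.00046). The Mut samples lay below the lowest KO sample as well. The 2 Slits that were called moved apart. Slit2 had 2896, 2733 and 3230.0 normalized counts in WT, 1608, 1525 and 1526 in Mut and 3029 and 2145 in KO (log2 fold change -0.92, SE 0.13, adjusted p = 0.0012). Slit1 had 354, 344 and 294 normalized counts in WT, 605, 531 and 948 in Mut and 299 and 469 in KO (log2 fold change 1.03, SE 0.23, adjusted p = 0.016). Both encode secreted repellents, and Slit3, Robo1, Robo2 and Robo4 were not called, with log2 fold changes between -0.01 and 0.08 for the Robos.

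Of the 14 Eph receptors, 5 fell and 2 rose. Epha3 had 1066, 836 and 1207 normalized counts in WT, 211, 207 and 204 in Mut and 1200.4 and 624 in KO (log2 fold change -2.30, SE 0.22, adjusted p = 0.00017). The 3 Mut samples agreed within a few counts and lay far below both other groups. Epha7 had 2317, 2539 and 2821 normalized counts in WT, 1621, 1696 and 1539 in Mut and 2284 and 2088 in KO (log2 fold change -0.66, SE 0.10, adjusted p = 0.0023). EPHA3 and EPHA7 are A-class receptors known for topographic mapping of axons. Epha10, a receptor without kinase activity, was low throughout, at 56.9, 56.0 and 50.4 normalized counts in WT, 20.5, 13.5 and 27.5 in Mut and 32.9 and 39.8 in KO (log2 fold change -1.42, SE 0.37, adjusted p = 0.03). Epha1 had 655, 743 and 605 normalized counts in WT, 269, 406 and 346 in Mut and 626 and 700.2 in KO (log2 fold change -0.98, SE 0.17, adjusted p = 0.0039). Ephb6, another kinase-dead receptor, had 412, 366 and 364 normalized counts in WT, 136, 169 and 294 in Mut and 265 and 439 in KO (log2 fold change -1.001, SE 0.28, adjusted p = 0.039). The Mut samples were lowest in both genes, apart from 1 KO sample of Ephb6 below the highest Mut sample. The call of Ephb6 was lost with edgeR and in 5 fits that left out 1 sample, and that of Epha10 in 5 such fits. Both genes that rose encode A-class receptors. Epha2 had 3813, 2541 and 3800.3 normalized counts in WT, 6378, 5358 and 7121 in Mut and 6732 and 6841 in KO (log2 fold change 0.91, SE 0.16, adjusted p = 0.0043) and its Mut and KO samples overlapped while WT was lower. Epha4, a receptor with broad ephrin binding, had 1037, 1062 and 1047 normalized counts in WT, 1522, 1980.4 and 2319 in Mut and 1213 and 1281 in KO (log2 fold change 0.87, SE 0.14, adjusted p = 0.003). Of the ephrins 1 of 8 was called. Efnb1, an X-linked transmembrane ephrin, had 5850.0, 5379 and 5338 normalized counts in WT, 3040.0, 3966 and 3518 in Mut and 5225 and 5149.6 in KO (log2 fold change -0.66, SE 0.10, adjusted p = 0.0025), and 7 of the 8 ephrins had a log2 fold change below 0.

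Of the 20 semaphorins 3 fell and 1 rose, and of the 8 plexins 1 fell. Sema3a, the classical secreted growth cone collapsing semaphorin, had 937, 1207 and 988 normalized counts in WT, 537, 604 and 479.6 in Mut and 889 and 893 in KO (log2 fold change -0.95, SE 0.14, adjusted p = 0.0016). Sema6d, a transmembrane semaphorin, had 390.3, 495 and 526 normalized counts in WT, 206, 285 and 309.6 in Mut and 331 and 330.2 in KO (log2 fold change -0.83, SE 0.19, adjusted p = 0.017), and its Mut samples were below WT while KO lay just above the highest Mut sample. Sema4f had 238, 319 and 281 normalized counts in WT, 141, 180.4 and 154 in Mut and 215 and 216 in KO (log2 fold change -0.81, SE 0.19, adjusted p = 0.018). Sema3e, which binds Plxnd1 without a neuropilin, rose, with 1594, 2147 and 1729.7 normalized counts in WT, 3184, 3261 and 3464 in Mut and 2425 and 1482 in KO (log2 fold change 0.87, SE 0.17, adjusted p = 0.008). The KO samples of Sema3e fell on both sides of WT. Plxna4, a receptor for class 3 and class 6 semaphorins, had 71.3, 50.4 and 57.3 normalized counts in WT, 10.2, 13.5 and 14.3 in Mut and 78.5 and 88.8 in KO (log2 fold change -2.15, SE 0.34, adjusted p = 0.0026), a low but separated level. The 2 neuropilins were not called in Mut.

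Some of the genes that fell in Mut lay beside others that fell as much. The median log2 difference from WT over all genes of chromosome 6, which holds Tet3 and 6 of the 68 genes, was -0.31 to -0.19 in the 3 Mut samples, and on chromosome 8, with 3 of the 68, it was -0.38 to -0.29 in Mut, -0.309 in KO replicate 2 and 0.177 in KO replicate 1. For each of these 9 genes the 25 tested genes on either side were taken as neighbours. Epha1 (log2 fold change -0.98) had neighbours with a median of -0.88, Ephb6 (-1.001) of -0.94 and Sema4f (-0.81) of -0.81. Plxna4 (-2.15) fell beyond its neighbours (-0.76), and Plxna1 and Plxnd1, also on chromosome 6, stayed near 0 as did their neighbours (0.03 and 0.15). Leaving out both chromosomes, 15 of the remaining 59 genes were called, 10 lower and 5 higher. What moved these stretches was not tested.

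**Figure D2:**
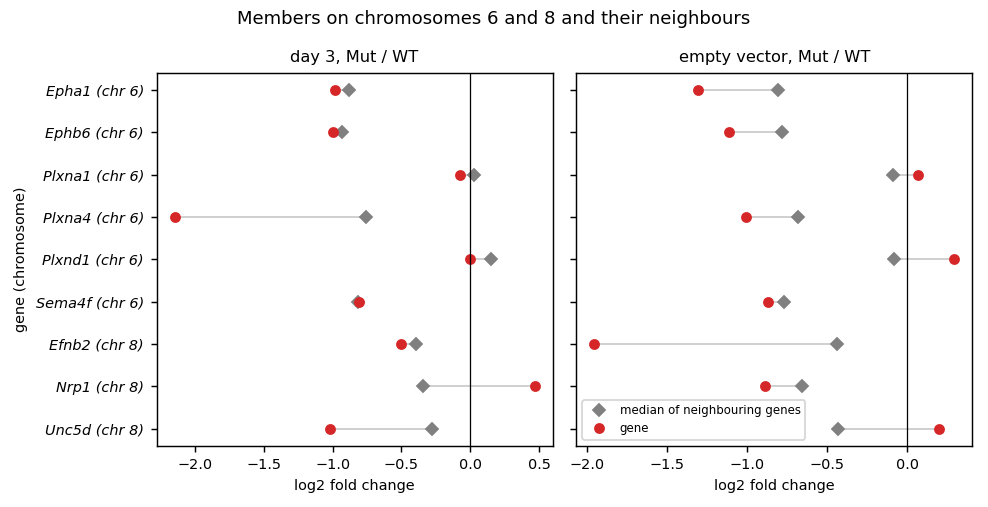
Log2 fold change of Mut against WT (horizontal axes) for the 9 guidance genes on chromosomes 6 and 8 (red points) and the median of their neighbouring genes (grey diamonds; 25 on each side, 29 in all for Nrp1), on day 3 and with the empty vector. On day 3 Epha1, Ephb6 and Sema4f lie close to the median of their neighbours and Plxna4 lies well below it, as Efnb2 does with the empty vector.

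Markers of differentiated neurons moved in the same samples. Of 12 neuron markers 7 fell and 1 rose in Mut on day 3, and their summed normalized counts were 4096 to 5636 in WT, 2713 to 3103 in Mut and 6205 to 7334 in KO, with Snap25 at 0 in 2 of 8 samples. Neural progenitor markers summed to 24441 to 32740.2 in WT, 20140.2 to 25812 in Mut and 31468 to 36234 in KO, with 6 of 12 lower and 1 higher in Mut. The higher KO sum came from Nes (21181 and 19689 in KO, 6667 to 11619 in WT) and Cdh2. Sox1, Sox2 (2032 and 1350 in KO, 3203 to 4693 in WT), Sox3, Pax6, Hes5, Zic1, Zic2, Fabp7 and Lhx2 were below every WT sample in both KO samples. Otx2 overlapped WT. Summed primitive streak and early mesoderm markers, 10 of 12 in the table, were 1692 to 2308 in WT, 2859.7 to 3782 in Mut and 2149.5 to 2338 in KO, with 2 higher and 0 lower in Mut and Evx1 at 0 in 1 of 8 samples. Vascular endothelium markers, 9 of 10 in the table, summed to 2049 to 2254, 2965 to 3099 and 1758 to 2440.1, with 2 higher and 2 lower in Mut. Of the other lists, 3 of 14 extraembryonic endoderm, 2 of 12 smooth muscle and mesenchyme and 1 of 10 pluripotent cell markers rose and 0 of each fell, and 3 of 8 neural crest markers fell and 2 rose. The part of these cell types in the guidance gene values was not tested.

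The KO samples had 1 called guidance gene on day 3. In KO against WT 1 of 68 genes rose and 0 fell, against 0.642% of all genes called in either direction (0.458% higher and 0.184% lower). At an unadjusted p under 0.05, 17 of the 68 passed by limma, where 20.1% of all genes did, and edgeR called 1 gene and DESeq2 7. The gene was Epha2 (log2 fold change 1.03, SE 0.18, adjusted p = 0.046), whose KO samples lay far above WT, and its call was lost in 6 of the 8 fits that left out 1 sample, while without Mut replicate 1 or 3 there were 5 and 4 calls. The next 4 by p-value were all higher in KO without passing. Unc5b, a netrin receptor of vessels, had 9917, 6908 and 7688 normalized counts in WT, 10894, 9184 and 7470.1 in Mut and 12951 and 15742 in KO (log2 fold change 0.82, adjusted p = 0.058). Nrp1, the co-receptor of class 3 semaphorins and of VEGF, had 2028, 1228 and 2119 normalized counts in WT, 3066, 2084 and 2185 in Mut and 3936 and 2957 in KO (log2 fold change 0.97, adjusted p = 0.072). Sema6a (0.79, adjusted p = 0.067) and Sema5a (0.92, adjusted p = 0.078), both transmembrane semaphorins, followed. In the KO samples smooth muscle and mesenchyme markers summed to 169319 to 192222 normalized counts, against 34426 to 76195 in WT and 45646 to 98622 in Mut, and 1 of these 12 markers was called higher. The part of these cells in the values was not tested. Nrp1 lies on chromosome 8, where its 29 neighbours had a median of -0.06 in KO.

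The direct comparison of KO with Mut called 13 genes higher and 4 lower in KO. Of all genes 9.73% were called in either direction (5.41% higher and 4.33% lower). Without KO replicate 1 the count was 11 in all. Plxna4 differed most (log2 fold change 2.64, SE 0.38, adjusted p = 0.0022), then Robo3 (2.44, adjusted p = 0.0052), Unc5a (2.10, adjusted p = 0.00043), Epha3 (2.06, adjusted p = 0.00089) and Unc5c (1.35, adjusted p = 0.0037), which are the 5 genes with the largest falls in Mut against WT. Epha1, Slit2 and Sema3a were also higher in KO, by 0.98, 0.71 and 0.73 on the log2 scale. Both sets of values share the Mut samples. Among genes not called in Mut against WT, Efna5, a GPI-anchored ephrin, had 1761, 1469 and 1756 normalized counts in WT, 1501, 1136 and 897 in Mut and 2625 and 2535 in KO (log2 fold change 1.16, SE 0.19, adjusted p = 0.0036), with the KO samples the highest. Sema6a had 2269.6, 1650.3 and 2017 normalized counts in WT, 2778, 2045 and 1722 in Mut and 3448 and 3340.4 in KO (log2 fold change 0.67, SE 0.19, adjusted p = 0.044), a call that was lost in 8 of 18 alternatives. Sema3b, a secreted relative of Sema3a, had 1739.6, 1502 and 1600.2 normalized counts in WT, 1366, 1349.8 and 985 in Mut and 1779 and 2094 in KO (log2 fold change 0.66, SE 0.16, adjusted p = 0.022). Unc5b (0.65, adjusted p = 0.04) and Plxnb2 (0.59, adjusted p = 0.01) were higher too and each lost its call in 7, as did Epha4 below. The 4 genes lower in KO were Ntn1 (log2 fold change -1.31, SE 0.26, adjusted p = 0.0096), Sema4a (-1.29, adjusted p = 0.015), Sema3e (-0.80, adjusted p = 0.022) and Epha4 (-0.62, adjusted p = 0.03). Sema4a, a semaphorin also known from immune cells, had 128, 119.5 and 128 normalized counts in WT, 176, 172 and 263 in Mut and 99.7 and 66.0 in KO, so that the Mut samples were above the KO samples and WT lay between.

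The empty-vector samples of the Dnmt1 experiment gave a second set of samples of the 3 genotypes, of clones not given, with more calls and tighter replicates. The median SD between replicates of the 68 genes was 0.0622 (log2) in empty-vector WT against 0.187 in day 3 WT. The labels do not say whether the 2 samples of a group are separate cultures, so the p-values here measure the spread between these samples, which may be technical. In Mut against WT 27 genes fell and 9 rose, a total of 36 of 68, against 21.2% of all genes (10.9% lower and 10.3% higher). In KO-labelled samples against WT 21 rose and 8 fell, 29 of 68 against 24.9% of all genes (11.0% higher and 13.9% lower). The median log2 fold change of the 68 was -0.24 in Mut and 0.28 in KO-labelled samples, and both comparisons share the WT samples.

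**Figure D3:**
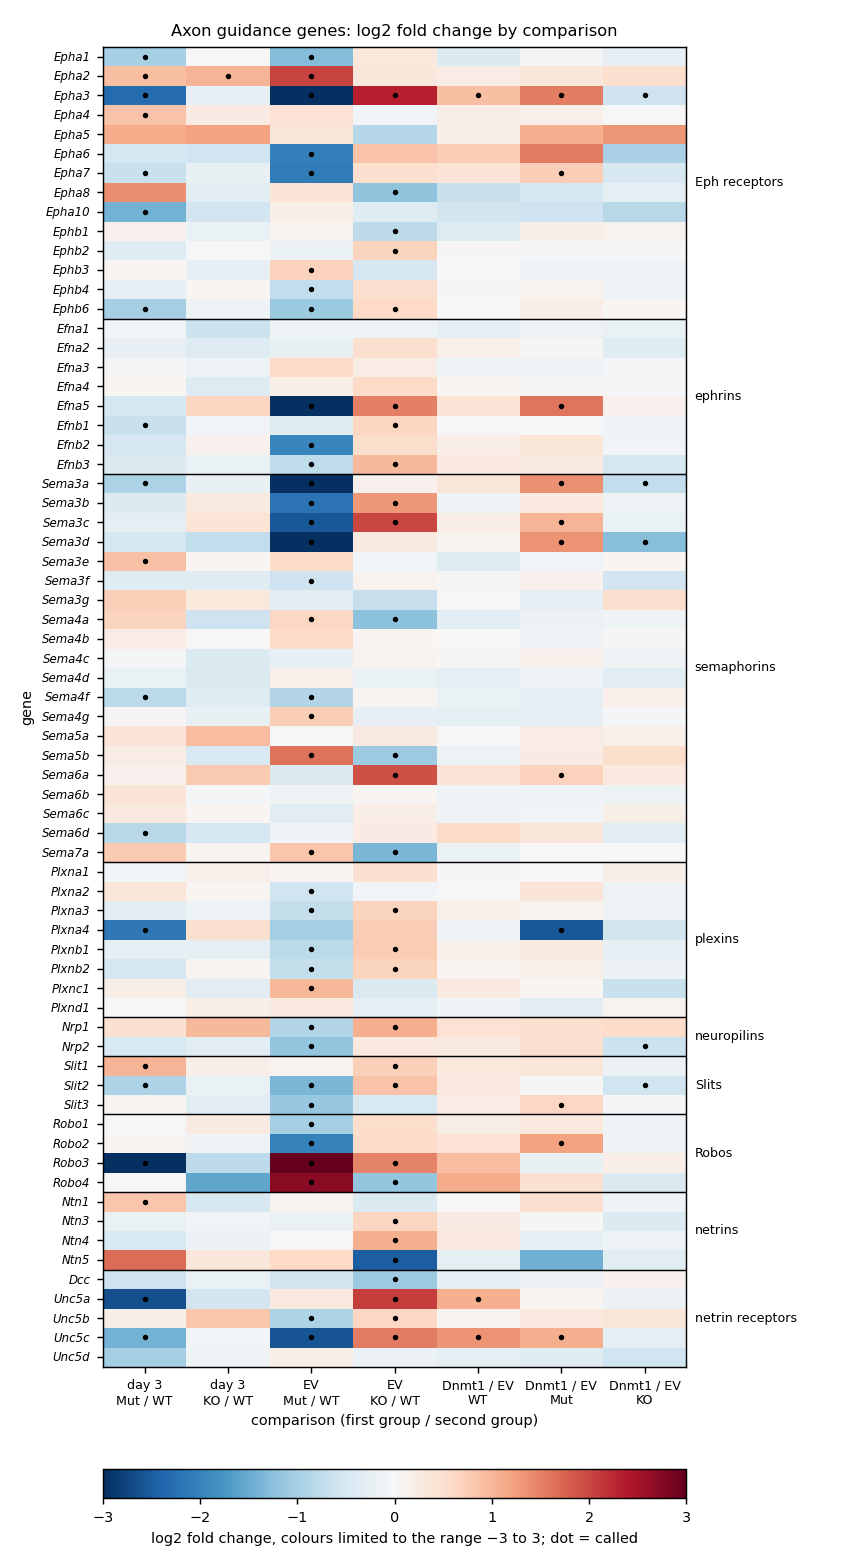
Log2 fold change (colour, limited to the range -3 to 3) of the 68 guidance genes (rows, by family) in 7 comparisons (columns), where EV is the empty vector and a dot marks a call by limma at an adjusted p below 0.05 and a fold change above 1.5. The empty-vector columns hold 36 called genes for Mut and 29 for KO-labelled samples, against 19 and 1 on day 3.

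Class 3 semaphorins were among the genes with the largest falls in empty-vector Mut cells. Sema3d had 1620.1 and 1492 normalized counts in WT, 98.7 and 89.9 in Mut and 1768 and 1977 in KO-labelled samples (log2 fold change -4.03, SE 0.11, adjusted p = 1.6e-17). Sema3a had 1058 and 1128 normalized counts in WT, 85.0 and 104 in Mut and 1198 and 1187 in KO-labelled samples (log2 fold change -3.52, SE 0.12, adjusted p = 1.4e-15). Sema3c had 1373 and 1296 normalized counts in WT, 214 and 242 in Mut and 5468 and 5328 in KO-labelled samples (log2 fold change -2.55, SE 0.08, adjusted p = 1.2e-16). The Mut samples were lowest in each, and for Sema3c the KO-labelled samples were highest (log2 fold change 2.02, SE 0.08, adjusted p = 1e-14). Sema3b showed the same order, at 1089 and 1046 normalized counts in WT, 241 and 220.1 in Mut and 2594 and 2670.4 in KO-labelled samples (log2 fold change -2.21 in Mut and 1.30 in KO-labelled samples). Their co-receptors fell in Mut as well. Nrp1 had 725 and 625 normalized counts in WT, 343 and 384 in Mut and 1574 and 1313 in KO-labelled samples (log2 fold change -0.89, SE 0.12, adjusted p = 2.8e-06). Nrp2 had 2301 and 2132 normalized counts in WT, 932 and 1029 in Mut and 2625 and 2805 in KO-labelled samples (log2 fold change -1.18, SE 0.07, adjusted p = 6.7e-12). Nrp1 lies on chromosome 8 and its 29 neighbours had a median of -0.66. Of the 20 semaphorins 6 fell and 4 rose in Mut, with Sema3f (-0.63) and Sema4f (-0.87, neighbours -0.77) the other 2 that fell. Those that rose were transmembrane or membrane-anchored. Sema5b had 269.7 and 269 normalized counts in WT, 823 and 850.4 in Mut and 148 and 108 in KO-labelled samples (log2 fold change 1.63, SE 0.17, adjusted p = 5e-08). Sema7a, the GPI-anchored semaphorin, had 143 and 162 normalized counts in WT, 267 and 273 in Mut and 52.0 and 65.6 in KO-labelled samples (log2 fold change 0.82, SE 0.20, adjusted p = 0.0016). In KO-labelled samples both were below WT (-1.09, adjusted p = 1.3e-05, and -1.37, adjusted p = 5e-06). Sema4a (log2 fold change 0.62 in Mut and -1.22 in KO-labelled samples) went the same ways, and Sema4g rose in Mut (0.74, adjusted p = 3.9e-07). Sema6a was not called in Mut and rose in KO-labelled samples, at 612 and 558 normalized counts in WT, 403 and 465 in Mut and 2276 and 2129.8 in KO-labelled samples (log2 fold change 1.91, SE 0.09, adjusted p = 2.5e-13). Of the 8 plexins 4 fell and 1 rose in Mut, with log2 fold changes of -0.81 for Plxnb1, -0.71 for Plxna3, -0.71 for Plxnb2 and -0.61 for Plxna2. Plxnc1, the receptor of Sema7a, rose, with 128 and 123 normalized counts in WT, 244 and 259 in Mut and 101 and 85.7 in KO-labelled samples (log2 fold change 1.00, SE 0.24, adjusted p = 0.002).

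Eph receptors and ephrins divided between the genotypes with the empty vector. Epha3 ranged most, with 243 and 232 normalized counts in WT, 14.6 and 15.6 in Mut and 1300.0 and 1114 in KO-labelled samples, a fall in Mut (log2 fold change -3.89, SE 0.16, adjusted p = 2.1e-14) and a rise in KO-labelled samples (log2 fold change 2.34, SE 0.16, adjusted p = 1.3e-10). Epha7 had 1951 and 1992 normalized counts in WT, 498 and 425 in Mut and 2797 and 2760.3 in KO-labelled samples (log2 fold change -2.10, SE 0.08, adjusted p = 3.1e-15) and its KO-labelled samples were not called. Epha6 was near the floor, at 9.88 and 16.2 normalized counts in WT, 10.1 and 0 in Mut and 19.5 and 28.6 in KO-labelled samples, and its fall (log2 fold change -2.04, SE 0.80, adjusted p = 0.042) was lost with edgeR, with DESeq2, with a pseudocount of 5 and in 9 of the fits with 1 sample left out. Epha1 (-1.31, neighbours -0.81) and Ephb6 (-1.11, neighbours -0.78) fell in Mut as on day 3, and Ephb4 fell too (-0.75). Epha2 rose in Mut, at 2997 and 2987 normalized counts in WT, 12036 and 12279.7 in Mut and 3812 and 3705 in KO-labelled samples (log2 fold change 2.02, SE 0.06, adjusted p = 2.9e-16), and was not called in KO-labelled samples. Ephb3, with 3664 and 3559.9 normalized counts in WT, 6097 and 5551 in Mut and 2456 and 2598 in KO-labelled samples, also rose in Mut (log2 fold change 0.69, SE 0.06, adjusted p = 1.1e-09). Among the ephrins Efna5 had 739.9 and 733 normalized counts in WT, 90.5 and 93.8 in Mut and 1993 and 2196 in KO-labelled samples, a fall in Mut (log2 fold change -2.99, SE 0.10, adjusted p = 3.2e-16) and a rise in KO-labelled samples (log2 fold change 1.51, SE 0.10, adjusted p = 3.9e-11). Efnb2, the B-class ephrin of arteries and of neural boundaries, had 5368 and 4993 normalized counts in WT, 1304 and 1367 in Mut and 7647 and 7272 in KO-labelled samples (log2 fold change -1.95, SE 0.06, adjusted p = 1.3e-16), beyond the median of its chromosome 8 neighbours (-0.44). Efnb3 followed Efna5 in smaller steps (-0.75 in Mut and 0.97 in KO-labelled samples), and Efnb1 rose in KO-labelled samples (0.65, adjusted p = 5.8e-10). Epha8 was lower in KO-labelled samples, with 126 and 146 normalized counts in WT, 174 and 190.1 in Mut and 48.7 and 68.8 in KO-labelled samples (log2 fold change -1.22, SE 0.24, adjusted p = 0.00022), and so was Ephb1 (-0.77, adjusted p = 0.027), while Ephb2 (0.67) and Ephb6 (0.60) rose. The call of Ephb1 was not kept in every alternative, where its log2 fold change ran from -0.90 to -0.65.

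In the netrin and Slit systems the empty-vector samples called changes in both ligands and receptors. Unc5c had 322 and 317 normalized counts in WT, 57.6 and 46.9 in Mut and 950.0 and 931 in KO-labelled samples, a fall in Mut (log2 fold change -2.60, SE 0.19, adjusted p = 2.1e-10) and a rise in KO-labelled samples (log2 fold change 1.56, SE 0.19, adjusted p = 5.1e-07). Unc5a had 81.0 and 107 normalized counts in WT, 123 and 105 in Mut and 344 and 459 in KO-labelled samples, so WT was as low as Mut (0.29, adjusted p = 0.25) and the KO-labelled samples were higher (log2 fold change 2.08, SE 0.20, adjusted p = 1.9e-08). Unc5b fell in Mut (-0.92, adjusted p = 6e-10) and rose in KO-labelled samples (0.61, adjusted p = 3.1e-07). Dcc had 169.9 and 249 normalized counts in WT, 154 and 128 in Mut and 98.2 and 95.2 in KO-labelled samples and was lower in KO-labelled samples (log2 fold change -1.08, SE 0.21, adjusted p = 0.00019). Ntn5, a little-studied netrin, had 34.6 and 31.3 normalized counts in WT, 44.8 and 56.0 in Mut and 17.1 and 1.06 in KO-labelled samples (log2 fold change -2.48, SE 0.70, adjusted p = 0.0054 in KO-labelled samples). Without empty-vector KO replicate 2 its log2 fold change was -0.91. Ntn4, the netrin of basement membranes, rose in KO-labelled samples (1.07, adjusted p = 0.00017). Slit2 had 1504 and 1403 normalized counts in WT, 564 and 565 in Mut and 2488 and 2758 in KO-labelled samples, with a fall in Mut (log2 fold change -1.36, SE 0.09, adjusted p = 2.3e-11) and a rise in KO-labelled samples (log2 fold change 0.85, SE 0.09, adjusted p = 4.2e-08). Slit3 fell in Mut (-1.14, adjusted p = 4.3e-08). All 4 Robos changed in Mut. Robo1 (-0.996, adjusted p = 6e-13) and Robo2, with 698 and 666 normalized counts in WT, 159 and 175 in Mut and 965 and 1059 in KO-labelled samples (log2 fold change -2.03, SE 0.10, adjusted p = 5.2e-13), fell. Robo3, with 17.8 and 18.6 normalized counts in WT, 167 and 249 in Mut and 48.7 and 57.1 in KO-labelled samples, rose (log2 fold change 3.42, SE 0.28, adjusted p = 1.2e-09). Robo4, the Robo of endothelial cells, had 27.7 and 27.8 normalized counts in WT, 180.0 and 193 in Mut and 8.12 and 16.9 in KO-labelled samples (log2 fold change 2.70, SE 0.40, adjusted p = 8.5e-06). The last 2 were the largest rises in Mut of the 68 genes.

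Cell type markers differed between these same samples. Markers of pluripotent cells summed to 40763 to 40917 normalized counts in WT, 101803 to 103040.0 in Mut and 5531 to 6109.9 in KO-labelled samples, with 9 of 10 higher in Mut and 9 of 10 lower in KO-labelled samples. Extraembryonic endoderm markers summed to 280918 to 291386, 651155 to 727534 and 120995 to 124006, with 13 of 14 higher in Mut and 11 lower in KO-labelled samples. Smooth muscle and mesenchyme markers ran the other way, at 35128 to 38039, 6775 to 7636 and 102087 to 107698, with 11 of 12 lower in Mut and 10 higher in KO-labelled samples. Vascular endothelium markers, 9 of 10 in the table, summed to 3054 to 3248, 4380.4 to 4639 and 1348 to 1412, with 5 higher in Mut and 4 lower in KO-labelled samples. Neuron markers, 11 of 12 in the table, summed to 1996 to 2076, 4388 to 4471 and 3118 to 3463, with 5 higher and 1 lower in Mut and 7 higher in KO-labelled samples, so that their sum was above WT in Mut here and below WT on day 3. Primitive streak and early mesoderm markers, 9 of 12 in the table, summed to 4122 to 4496, 10396 to 10880.3 and 1905 to 2386, with 4 higher and 1 lower in Mut and 1 higher and 3 lower in KO-labelled samples. Neural crest markers summed to 3716 to 3815, 2488 to 2509.6 and 4689.9 to 4995, with 4 of 8 lower and 2 higher in Mut. Neural progenitor markers summed to 19509 to 20050.4, 20543 to 20793 and 22938 to 23263, with 5 of 12 lower and 4 higher in Mut as in KO-labelled samples, and Fabp7 was at 0 in 1 of the 12 samples, the only marker at 0. Their part in the guidance gene values was not tested.

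Between KO-labelled and Mut samples with the empty vector 35 genes were higher and 13 lower, 48 of 68 against 39.6% of all genes (18.9% higher and 20.6% lower). The differences ran from -3.87 for Robo4, -3.07 for Ntn5, -2.72 for Sema5b, -2.19 for Sema7a and -1.93 for Robo3 at the low end to 6.22 for Epha3, 4.56 for Sema3c, 4.49 for Efna5, 4.30 for Sema3d and 4.15 for Unc5c at the high end, on the log2 scale. Every class 3 semaphorin called here except Sema3e (-0.62) was higher in KO-labelled samples.

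The 3 experiments share no samples, so Mut can be set against WT in each. The clones of the vector experiments were not given, so experiments may share a clone and need not be independent. Grb10, from the partner list below, had 1596 normalized counts in day 3 Mut replicate 1 and 51685 and 57931 in replicates 2 and 3. It had 1049 and 1032 in Mut of the Tet3-CD experiment, and 38462.5 and 39185 in empty-vector Mut of the Dnmt1 experiment. Whether clones were shared was not tested. Of 67 genes 25 were lower in Mut in each experiment and 8 were higher, while among 16812 genes measured in the 3 experiments 22.7% were lower in each and 21.8% higher. Past 1.5-fold in each, 8 guidance genes were lower (11.9%, against 2.88% of all genes) and 2 were higher (2.99%, against 3.5%). The 8 were Epha1, Epha3, Epha7, Ephb6, Plxna4, Sema3a, Slit2 and Unc5c, and the 2 were Epha2 and Sema7a. Epha1, Ephb6 and Plxna4 are on chromosome 6, with neighbours at -0.997, -0.94 and -0.86 in the Tet3-CD experiment too. The log2 differences of Epha3 were -2.30, -3.89 and -2.36 on day 3, with the Dnmt1 experiment's empty vector and with that of the Tet3-CD experiment. For Unc5c they were -1.42, -2.60 and -2.86, for Sema3a -0.95, -3.52 and -2.97, and for Slit2 -0.92, -1.36 and -1.39. Other genes did not keep their direction. Robo3 was lower on day 3 (-3.23) and in the Tet3-CD experiment (-1.77) but higher in the Dnmt1 experiment (3.42), and Unc5a was lower on day 3 (-2.64) and close to 0 in the other two (0.29 and 0.08). For KO against WT no guidance gene passed 1.5-fold in the same direction in each experiment, against 0.684% of all genes for lower and 1.13% for higher.

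**Figure D4:**
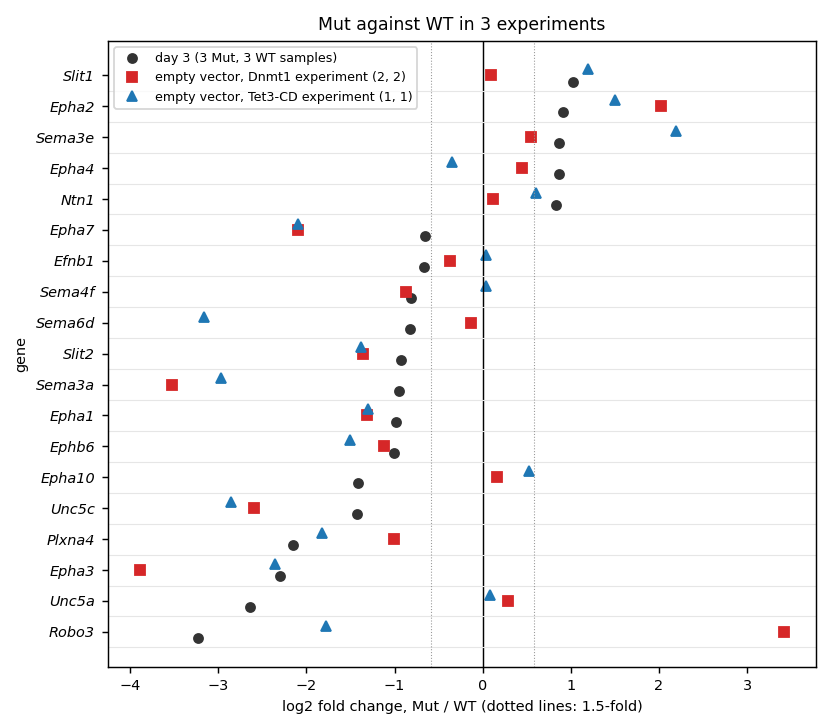
Log2 fold change of Mut against WT (horizontal axis, dotted lines at 1.5-fold) for the 19 guidance genes called on day 3, in the day 3 samples (circles, 3 against 3), the empty-vector samples of the Dnmt1 experiment (squares, 2 against 2) and those of the Tet3-CD experiment (triangles, 1 against 1, no test). Epha3, Unc5c, Sema3a and Slit2 lie below 0 in each, whereas Robo3 lies at 3.42 in the Dnmt1 experiment and below 0 in the others.

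The Dnmt1 vector was used to ask what more maintenance methyltransferase does in each genotype. In WT Unc5c, Unc5a and Epha3 rose, in Mut 10 genes rose with Efna5 and Epha3 in the lead, and in KO-labelled samples Sema3d, Sema3a, Nrp2, Epha3 and Slit2 fell. In WT 3 genes rose and 0 fell, against 1.17% of all genes (0.421% higher and 0.753% lower). In Mut 10 rose and 1 fell, against 2.46% of all genes (1.78% higher and 0.681% lower). In KO-labelled samples 0 rose and 5 fell, against 3.53% of all genes (2.51% higher and 1.02% lower). At an unadjusted p under 0.05, 28, 29 and 30 of the 68 passed in the 3 genotypes, where 19.9%, 23.3% and 26.3% of all genes did. Without either KO-labelled Dnmt1 sample the WT count was 5. Without Dnmt1 KO replicate 1 the KO-labelled calls were 2 higher and 8 lower.

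Whether the vector acted differently by genotype was tested by the interaction, the Dnmt1 effect in one genotype minus that in WT. Dnmt1 itself rose more in Mut than in WT and most in KO-labelled samples, as given above. Genotype and the amount of Dnmt1 therefore cannot be told apart in the interaction. On the log2 scale Mut showed a larger rise than WT for 5 genes and a smaller one for 0. Of all genes 0.604% were called (0.521% higher and 0.0831% lower). The 5 were Efna5, Robo2, Sema3a, Sema3c and Sema3d. By group means of normalized counts, Efna5, Robo2 and Sema3a gained more in WT, and Sema3c and Sema3d more in Mut. For KO-labelled samples the interaction called 12 genes, each with a lower value than in WT, against 3.99% of all genes (1.33% lower and 2.66% higher). Sema3a and Sema3d were in both sets, with opposite signs. The 2 interactions share the WT samples.

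Since DNMT1 and TET3 act on CG dinucleotides, promoter sequence is shown for the 5 genes with a larger log2 response in Mut. The 250 bases before the start site come from RefSeq on build GRCm38.p6, 5′ to 3′ on the coding strand. Each CG is in capitals, and the most upstream annotated start was used where there are several. The positions are chr17:62881318-62881567 (minus strand) for Efna5, chr16:75447294-75447543 (minus) for Robo2, and chr5:13396534-13396783, chr5:17574566-17574815 and chr5:12382916-12383165 (plus strand) for the 3 semaphorins.
Efna5: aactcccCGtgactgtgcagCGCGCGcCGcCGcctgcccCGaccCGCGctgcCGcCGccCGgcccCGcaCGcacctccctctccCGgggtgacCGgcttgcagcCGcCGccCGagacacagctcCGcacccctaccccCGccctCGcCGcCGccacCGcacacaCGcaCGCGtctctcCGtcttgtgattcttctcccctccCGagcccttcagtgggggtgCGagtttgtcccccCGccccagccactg
Robo2: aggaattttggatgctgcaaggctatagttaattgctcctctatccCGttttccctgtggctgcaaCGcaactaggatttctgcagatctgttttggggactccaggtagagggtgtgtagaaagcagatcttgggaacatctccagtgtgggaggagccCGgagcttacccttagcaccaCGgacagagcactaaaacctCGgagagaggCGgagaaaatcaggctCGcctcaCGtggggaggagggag
Sema3a: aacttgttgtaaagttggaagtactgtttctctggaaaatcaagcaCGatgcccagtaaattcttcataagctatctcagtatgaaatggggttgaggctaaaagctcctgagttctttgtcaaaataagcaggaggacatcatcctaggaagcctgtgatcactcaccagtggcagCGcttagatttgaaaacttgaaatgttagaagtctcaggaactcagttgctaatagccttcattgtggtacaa
Sema3c: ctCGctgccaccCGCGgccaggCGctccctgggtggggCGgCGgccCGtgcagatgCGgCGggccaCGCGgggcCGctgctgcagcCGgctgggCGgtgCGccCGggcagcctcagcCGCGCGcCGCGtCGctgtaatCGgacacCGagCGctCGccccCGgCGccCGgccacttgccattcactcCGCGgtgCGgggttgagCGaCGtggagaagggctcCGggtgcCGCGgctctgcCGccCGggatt
Sema3d: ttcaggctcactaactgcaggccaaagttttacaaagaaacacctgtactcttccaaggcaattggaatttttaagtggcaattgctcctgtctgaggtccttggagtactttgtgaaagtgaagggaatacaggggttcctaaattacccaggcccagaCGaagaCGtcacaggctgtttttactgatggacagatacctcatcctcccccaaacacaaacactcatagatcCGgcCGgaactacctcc
The windows differ widely. Sema3c held 39 CGs and Efna5 32, more than or as many as 98.7% and 96.0% of the 32851 windows in the table, while Robo2 held 8, Sema3d 4 and Sema3a 2, where the median of all windows was 6. Over the 74 windows found for 58 of the 68 genes the median was 15.5 CGs, with a range from 0 to 46. The motif AGGTCA, bound by retinoic acid receptors and searched on both strands, was in 14.9% of these windows and in 14.0% of all windows, and AGTTCA, the other form searched, was in 5.41% and 11.8%. No test was made of either share. These counts describe sequence and not methylation, which was not analysed here.

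**Figure D5:**
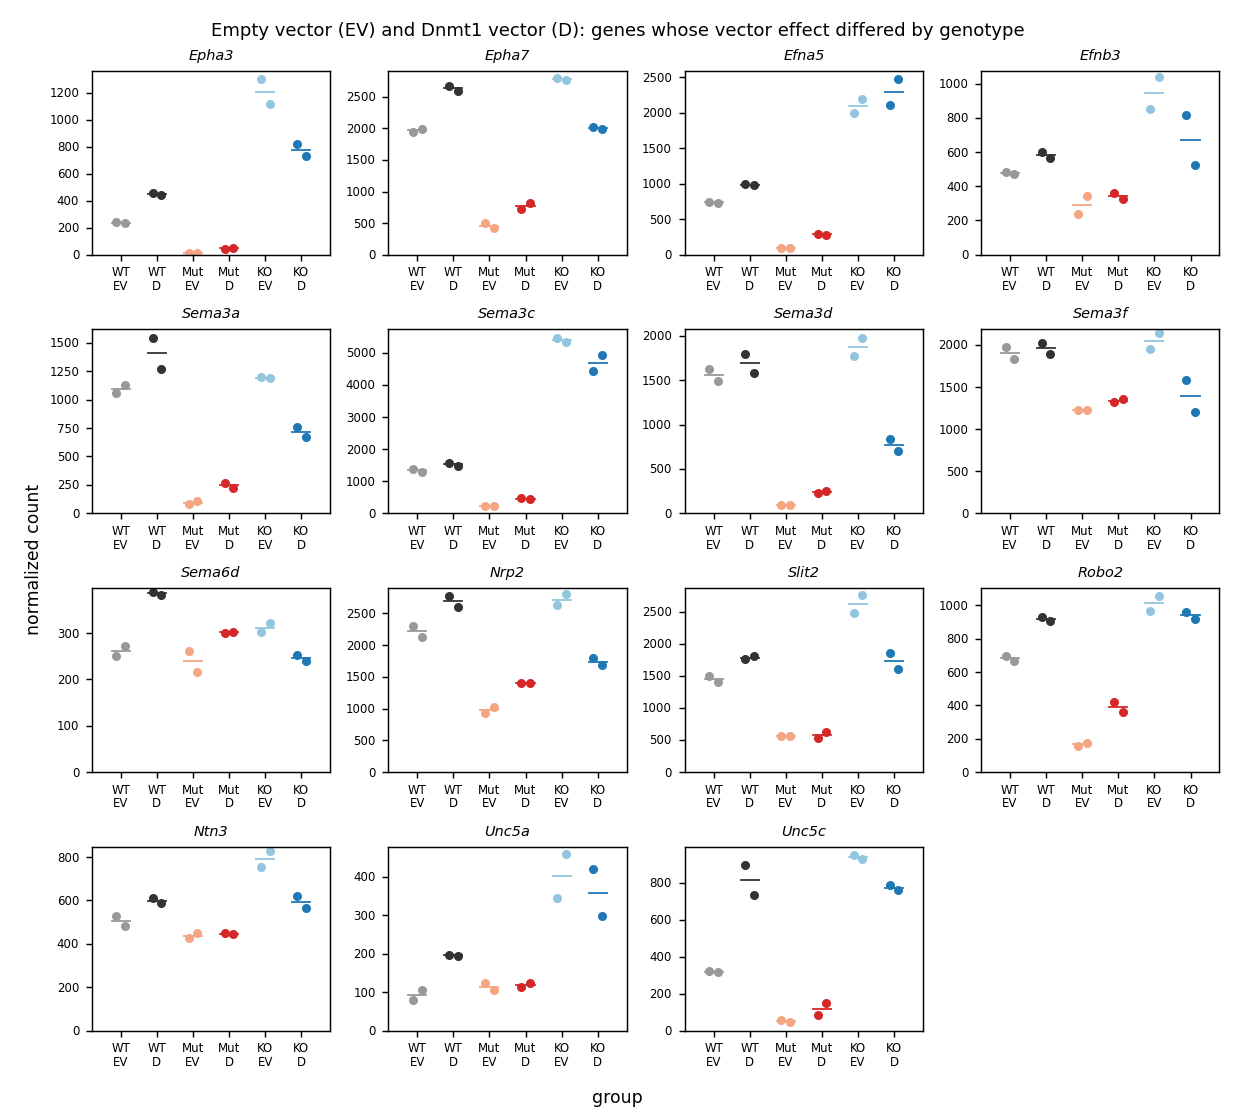
Normalized counts (vertical axes, from 0) of the 15 guidance genes with a called interaction in the Dnmt1 experiment, by genotype with the empty vector (EV) or the Dnmt1 vector (D), with 1 point per sample and a line at the mean of 2 samples. Sema3a and Sema3d rise with Dnmt1 in Mut and fall in KO-labelled samples, and in Mut they stay below the WT samples.

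The 5 genes with a larger log2 response in Mut had low Mut levels with the empty vector, given above. With the Dnmt1 vector Sema3d had 1793 and 1581 normalized counts with Dnmt1 in WT, 229 and 256 in Mut and 838 and 699 in KO-labelled samples (interaction 1.24, SE 0.15, adjusted p = 8.1e-05). Efna5 had 992 and 974 normalized counts with Dnmt1 in WT, 296 and 274 in Mut and 2103 and 2473 in KO-labelled samples (interaction 1.20, SE 0.14, adjusted p = 3.4e-05). Both rose in Mut and stayed far below WT. Sema3a had 1545 and 1268 normalized counts with Dnmt1 in WT, 271 and 222 in Mut and 757 and 671 in KO-labelled samples (interaction 1.01, SE 0.18, adjusted p = 0.0029). Sema3c had 1572 and 1479.7 normalized counts with Dnmt1 in WT, 470.2 and 449 in Mut and 4422 and 4936 in KO-labelled samples (interaction 0.82, SE 0.11, adjusted p = 0.00022). Robo2, a receptor of Slit1 and Slit2, had 928 and 906 normalized counts with Dnmt1 in WT, 418 and 358 in Mut and 963 and 918 in KO-labelled samples (interaction 0.78, SE 0.14, adjusted p = 0.0053). With the Dnmt1 vector the Mut samples of each of the 5 were still below every WT sample with either vector. Other genes rose in Mut without a called interaction. Epha3 had 456 and 440.2 normalized counts with Dnmt1 in WT, 41.1 and 51.1 in Mut and 823 and 732 in KO-labelled samples, with a rise in Mut (log2 fold change 1.54, SE 0.16, adjusted p = 1.3e-06), a rise in WT (log2 fold change 0.91, SE 0.16, adjusted p = 0.0018) and a fall in KO-labelled samples (log2 fold change -0.63, SE 0.16, adjusted p = 0.012). Unc5c had 896 and 735 normalized counts with Dnmt1 in WT, 83.1 and 149 in Mut and 789.5 and 759 in KO-labelled samples and rose in Mut (1.08, adjusted p = 0.00056) and WT (1.34, adjusted p = 0.00021). Epha7 (0.74), Sema6a (0.69) and Slit3 (0.62) were the other genes that rose in Mut, on the log2 scale. The gene called lower was Plxna4, with 29.6 and 41.7 normalized counts with the empty vector against 34.1 and 30.2 with Dnmt1 in WT, 11.0 and 26.0 against 0 and 8.66 in Mut, and 52.0 and 67.7 against 41.8 and 38.1 in KO-labelled samples. This call was lost with edgeR and DESeq2.

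In KO-labelled samples 2 class 3 semaphorins and 1 neuropilin were among the 5 genes that fell with Dnmt1. Sema3d fell most (log2 fold change -1.29, SE 0.11, adjusted p = 1.3e-07), then Sema3a (log2 fold change -0.74, SE 0.12, adjusted p = 0.00035) and the neuropilin Nrp2, which had 2778 and 2601 normalized counts with Dnmt1 in WT, 1396 and 1402 in Mut and 1803 and 1679 in KO-labelled samples (log2 fold change -0.64, SE 0.07, adjusted p = 3e-06). Nrp1 had a log2 fold change of 0.55 and Sema3c of -0.21, and neither was called. Slit2 had 1757 and 1814 normalized counts with Dnmt1 in WT, 534 and 629 in Mut and 1849 and 1614 in KO-labelled samples (log2 fold change -0.60, SE 0.09, adjusted p = 7.2e-05). The KO-labelled samples with Dnmt1 lay between the empty-vector WT and KO-labelled samples for Slit2 and below both for Nrp2. The call of Slit2 was lost without Dnmt1 KO replicate 2 or empty-vector KO replicate 2, and that of Epha3 without Dnmt1 KO replicate 2 or empty-vector KO replicate 1. The interaction in KO-labelled samples was largest for Unc5c (-1.62, SE 0.27, adjusted p = 0.00044) and Epha3 (-1.54, adjusted p = 0.00016), both of which rose in WT. Unc5a had 196 and 195 normalized counts with Dnmt1 in WT, 114 and 125 in Mut and 419.7 and 298 in KO-labelled samples and rose in WT (log2 fold change 1.07, SE 0.20, adjusted p = 0.0029), with an interaction of -1.24 (adjusted p = 0.0073). Both UNC5 genes thus rose in WT and were not called in KO-labelled samples. Sema3d (-1.40), Sema3a (-1.10), Nrp2 (-0.92), Sema6d (-0.90), Slit2 (-0.90), Epha7 (-0.89), Efnb3 (-0.81), Ntn3 (-0.66) and Sema3f (-0.61) were the other 9, on the log2 scale. Sema6d had 249.9 and 273 normalized counts with the empty vector against 389 and 383 with Dnmt1 in WT, 261 and 216 against 299 and 303 in Mut, and 302 and 322 against 252 and 240.4 in KO-labelled samples, so the WT samples were higher and the KO-labelled samples lower with Dnmt1, neither passing the call. Epha7 had 2678 and 2597 normalized counts with Dnmt1 in WT, 721 and 820.4 in Mut and 2015 and 1994 in KO-labelled samples. Ntn3 had 527 and 482 normalized counts with the empty vector against 611 and 586 with Dnmt1 in WT, 426 and 451 against 449 and 445 in Mut, and 755 and 827 against 622 and 565 in KO-labelled samples, so its Mut samples stayed level. The calls of Efnb3 and Sema3f were lost in 8 and 5 of 21 alternatives. Markers moved with the vector too. In KO-labelled samples 7 of 10 pluripotent markers were higher with Dnmt1, with sums of 5531 to 6109.9 and 8719 to 8951 normalized counts with the empty and the Dnmt1 vector, and 6 of 12 smooth muscle and mesenchyme markers were higher and 1 lower, with sums of 102087 to 107698 and 146937 to 194656. In Mut 7 of 12 smooth muscle and mesenchyme markers were higher, with sums of 6775 to 7636 and 11252 to 11442, and 4 of 8 neural crest markers, with sums of 2488 to 2509.6 and 3417 to 3609. Their part in these values was not tested.

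The Tet3-CD experiment asks whether the catalytic domain alone changes expression, and it had 1 sample per group, so these differences have no replicate check and no test. With the domain 4 of 67 genes were past 1.5-fold in Mut, all higher, against 10.1% of all 17481 genes in either direction (4.58% higher and 5.53% lower). In WT 2 were higher and 5 lower (13.4% of all genes in either direction, 6.11% higher and 7.3% lower), and in KO 4 were higher and 18 lower (21.5%, 9.89% higher and 11.6% lower). The median log2 ratio of the 67 was 0.09 in Mut, 0.03 in WT and -0.20 in KO. Tet3 itself went from 1849.9 to 5232 normalized counts with the domain in Mut, 4755 to 5441 in WT and 2069.8 to 2759 in KO. The KO pair thus had more genes past 1.5-fold than the Mut pair, with a smaller gain of Tet3. What moved the genes in KO was not tested. Comparing Mut with WT under the empty vector 13 genes were higher and 25 lower (36.3% of all genes in either direction, 20.2% higher and 16.1% lower), and for KO 14 were higher and 12 lower (27.1%, 15.4% higher and 11.7% lower).

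Genes that were low in Mut on day 3 are given first, each with the empty-vector value before the value with the catalytic domain, in normalized counts. Epha3 had 1436 and 1753 in WT, 279 and 277 in Mut, and 1036 and 806 in KO. Unc5c had 1235 and 1185 in WT, 169 and 278 in Mut, and 958 and 701 in KO. Sema3a had 1858 and 2037 in WT, 236 and 307 in Mut, and 1083 and 653 in KO. In these 3 genes the Mut pair stayed well below the WT and KO pairs, and the largest change with the domain in Mut was that of Unc5c (log2 ratio 0.71). Slit2 had 2397 and 2621 in WT, 917 and 1080.2 in Mut, and 1509 and 1309.7 in KO. Epha7 had 2900.4 and 2901 in WT, 678 and 707 in Mut, and 1623 and 1703 in KO. Sema6d had 1124 and 1151 in WT, 125 and 153 in Mut, and 408 and 283 in KO. Mut was again lowest in each, with log2 ratios between empty-vector Mut and WT of -1.39, -2.10 and -3.16. Plxna4, Epha1, Ephb6 and Sema4f are on chromosome 6. Plxna4 had 62.0 and 78.0 in WT, 16.8 and 22.5 in Mut, and 76.2 and 69.9 in KO. Epha1 had 754 and 655 in WT, 304 and 316 in Mut, and 773 and 658 in KO. Ephb6 had 324 and 375 in WT, 114 and 152 in Mut, and 246 and 315 in KO. These 3 were lowest in Mut, whereas Sema4f had 94.0 and 63.2 in WT, 96.8 and 115 in Mut, and 190.4 and 214 in KO, with a log2 ratio of 0.04 between empty-vector Mut and WT where its neighbours had a median of -0.89.

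Values of some receptors, and of the ligand Sema4a, past 1.5-fold with the domain in WT or KO follow. Other receptors also passed, such as Robo2, with 1143 and 584 in KO. Robo3 had 206 and 86.9 in WT, 59.6 and 66.7 in Mut, and 357 and 111 in KO, with log2 ratios of -1.24 in WT and -1.68 in KO. Dcc had 145 and 51.4 in WT, 342 and 332 in Mut, and 208 and 66.1 in KO, with log2 ratios of -1.48 and -1.64. In both genes the Mut pair differed little. Epha10, a low gene, had 10.7 and 9.88 in WT, 15.8 and 24.4 in Mut, and 48.1 and 13.2 in KO, and Unc5a had 139 and 122 in WT, 147 and 132 in Mut, and 217 and 125 in KO. Both were past 1.5-fold lower with the domain in KO, as were Epha4, with 1127 and 1095 in WT, 884 and 1097 in Mut, and 1325 and 781 in KO, and Sema4a, with 226 and 196 in WT, 171 and 186 in Mut, and 157 and 60.5 in KO. The receptors higher with the domain in KO were Nrp1, Epha2 and Unc5b. Nrp1 had 1439 and 1905 in WT, 2688 and 2586 in Mut, and 1059 and 2664 in KO, Epha2 had 3579.8 and 3700.3 in WT, 10138 and 9398 in Mut, and 1904 and 4353 in KO, and Unc5b had 8258 and 9649.8 in WT, 17154 and 15983 in Mut, and 8402 and 13781 in KO, which gave log2 ratios in KO of 1.33, 1.19 and 0.71. Sema3c was the other gene past 1.5-fold higher in KO (0.60).

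The secreted ligands that rose in Mut on day 3 were higher in Mut than in WT under the empty vector here too. Ntn1 had 919.8 and 819.9 in WT, 1400.2 and 1629 in Mut, and 1127 and 1239.8 in KO. Slit1 had 219 and 147 in WT, 501 and 462 in Mut, and 406 and 259.9 in KO. Sema3e had 685 and 884 in WT, 3136 and 3182 in Mut, and 1529 and 1427 in KO. With the domain the Mut value of each stayed above the WT value. Efnb1 and Plxnb2, among the most abundant guidance genes, differed little between vectors. Efnb1 had 4291 and 4574 in WT, 4395 and 4449 in Mut, and 5599 and 5572 in KO, and Plxnb2 had 16993 and 16941 in WT, 10737 and 10804 in Mut, and 14367 and 13852 in KO. Efna5 had 1226 and 1440.2 in WT, 1714 and 1708 in Mut, and 1391 and 1961 in KO, so that Mut was not below WT as it was in the Dnmt1 experiment. Sema3b had 925 and 1148 in WT, 1157 and 1227 in Mut, and 1306 and 1565 in KO, and Sema6a had 2277 and 2261 in WT, 2351 and 2547 in Mut, and 1478 and 1944 in KO. Extraembryonic endoderm markers summed to 1103770.0 normalized counts in empty-vector WT, 235390.0 in Mut and 311263 in KO, and to 198304 in KO with the domain. Smooth muscle and mesenchyme markers in KO summed to 43019 with the empty vector and 121060.0 with the domain. None of the markers in these 2 lists was at 0, and their part in these values was not tested.

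Partners of the guidance receptors were followed as a separate list of 63 co-receptors, adhesion molecules and cytoplasmic effectors. In Mut on day 3, 6 of 62 tested fell and 0 rose, where 5.19% of all genes fell and 5.06% rose. In KO 0 were called (0.642% of all genes), with 20 at an unadjusted p under 0.05 by limma (20.1% of all genes). Between KO and Mut 10 were higher in KO and 1 lower, against 5.41% and 4.33% of all genes. The smallest p in Mut belonged to Cntn2, an axonal adhesion molecule, with 1261, 1096 and 1351 normalized counts in WT, 187, 174 and 163 in Mut and 1432 and 1174 in KO (log2 fold change -2.81, SE 0.14, adjusted p = 4.6e-06). Ntng2, a membrane-anchored relative of the netrins, had 772, 699 and 861 normalized counts in WT, 170.0, 292 and 240.3 in Mut and 761 and 669 in KO (log2 fold change -1.76, SE 0.19, adjusted p = 0.00036). Draxin, a repulsive ligand of DCC, had 1096, 1306 and 1646 normalized counts in WT, 525, 642 and 476 in Mut and 827 and 685 in KO (log2 fold change -1.29, SE 0.17, adjusted p = 0.00098). Each of the 3 was lowest in the Mut samples. Dpysl2, a semaphorin effector at the cytoskeleton, and Srgap3, a GTPase-activating protein of the Slit and Robo system, also fell (-0.89, adjusted p = 0.0045, and -0.61, adjusted p = 0.0095). In KO against WT the smallest p was that of Gap43, a growth cone protein (1.08, adjusted p = 0.051). With the empty vector 12 of 63 rose and 12 fell in Mut, against 10.3% and 10.9% of all genes, and 16 rose and 4 fell in KO-labelled samples, against 11.0% and 13.9%. Farp1, a plexin effector, had 6340.1 and 5697 normalized counts in WT, 1957 and 1981 in Mut and 10484 and 10930.2 in KO-labelled samples, with changes of -1.61 and 0.83. Flrt2, an Unc5 ligand, had 296 and 248 normalized counts in WT, 177 and 185 in Mut and 1391 and 1379 in KO-labelled samples and rose in KO-labelled samples (log2 fold change 2.35, SE 0.12, adjusted p = 9.9e-13). The Dnmt1 vector raised 3 partners in WT, 4 in Mut and 2 in KO-labelled samples and lowered 0 in each, where 0.421%, 1.78% and 2.51% of all genes rose. The Mut interaction called 0 of 63, with 14 at an unadjusted p under 0.05 by limma (10.9% of all genes), and the KO interaction called 6 lower and 2 higher (1.33% and 2.66% of all genes), Flrt3 (-0.63), Boc (-0.64) and Flrt2 (-1.16) having the smallest p.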

How the data were processed

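RNA-seq of 26 samples was used, 8 of day 3, 12 of the Dnmt1 and 6 of the Tet3-CD experiment. The deposited values are signal in the form of normalized counts, which the authors made with Trim Galore 0.6.7, STAR 2.7.9a and featureCounts and divided by DESeq2 size factors. The submitters' processing notes name mm10, the methods mm39. In each sample 100% of values lay within 0.01 of a whole multiple of 1 read, so whole reads and totals were recovered for edgeR 4.0.16 and DESeq2 1.42.0. The tables hold no gene with a mean below 9.46, 9.35 and 3.87 in the 3 experiments. log2(value + 1) was tested with limma 3.58.1 (R 4.3.3), 1 fit over the groups of each experiment, over genes with a mean of at least 10, which all 68 genes passed in the day 3 and Dnmt1 tables; fold changes are on that scale. A gene was called at a Benjamini-Hochberg adjusted p below 0.05 and a fold change above 1.5. Tet3-CD samples gave log2 ratios only. Values were named for called genes, at most 25 per comparison by size of change, or the 5 with the smallest p where fewer were called, and for the 2 highest of each family. 2 empty-vector WT columns of the Dnmt1 table share 1 name, were assigned to the group and carry no replicate number. Replicates differed by 13.5 to 85.2 times their sampling variance on day 3 and 3.91 to 10.7 times in the Dnmt1 experiment, so none were merged. Exon lengths and gene order came from GENCODE vM21, which is on another build and was used for lengths, chromosomes and neighbours. The gene families, partner and marker lists were chosen with earlier results of these data known. The fits were tested on simulated counts with the same dispersion for every gene and with changes well above the threshold. This does not check calls near 1.5-fold or at low counts. The alternatives were other pseudocounts, filters, tools, scaling, sample subsets, the replicate block and both thresholds.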

Additional observations from a re-analysis of the deposited data

Results flagged for a closer look

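The effect of the Dnmt1 vector differed between genotypes by the interaction test of limma for 5 guidance genes in Mut against WT. The differences were 1.24 for Sema3d, 1.20 for Efna5, 1.01 for Sema3a, 0.82 for Sema3c and 0.78 for Robo2 on the log2 scale, with adjusted p from 3.4e-05 for Efna5 to 0.0053 for Robo2, and both Mut samples with Dnmt1 were above both with the empty vector in each of the 5.

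In KO-labelled samples against WT the vector effect differed for 12 genes, by -1.62 for Unc5c, -1.54 for Epha3, -1.40 for Sema3d, -1.24 for Unc5a, -1.10 for Sema3a, -0.92 for Nrp2, -0.90 for Sema6d, -0.90 for Slit2, -0.89 for Epha7, -0.81 for Efnb3, -0.66 for Ntn3 and -0.61 for Sema3f. Dnmt1 itself rose more in Mut and in KO-labelled samples than in WT. The interactions of both genotypes therefore do not separate genotype from the amount of Dnmt1.

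Robo3 went opposite ways in the 2 experiments with replicates. In Mut it was at -3.23 against WT on day 3 and at 3.42 with the empty vector, and in KO at -0.78 (adjusted p = 0.32 by limma) and 1.49. The difference between the experiments was not tested, and the WT level of Robo3 was 425, 342 and 572 normalized counts on day 3 and 17.8 and 18.6 with the empty vector.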

How the results depend on the processing

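The number of guidance genes called was within 1.5 times the main count for most alternatives, and no called difference reversed. For KO against WT on day 3 (1 gene) DESeq2 called 7, a fit of the 2 compared groups 5 and the replicate block 2. Without a fold threshold the counts were 49 for KO-labelled against WT with the empty vector, 15, 23 and 19 for the Dnmt1 vector in WT, Mut and KO-labelled samples, and 20 for the KO interaction. In the Tet3-CD experiment a fold of 2 gave 20 genes for Mut and 10 for KO against WT, and 0 for the domain in Mut and 8 in KO, and a mean of at least 50 gave 2 for the domain in Mut. Leaving out 1 sample gave 12 to 20 genes for Mut against WT on day 3, 0 to 5 for KO against WT and 11 to 20 for KO against Mut. With the empty vector it gave 35 to 37, 26 to 29 and 45 to 48, with the Dnmt1 vector 2 to 5 in WT, 11 to 13 in Mut and 4 to 10 in KO-labelled samples, and for the interactions 5 to 6 in Mut and 9 to 15 in KO-labelled samples. The 5 in WT came without Dnmt1 KO replicate 1 or 2, and the 10 without Dnmt1 KO replicate 1. Where a fit leaves 1 sample in a group, that sample is assumed to vary like the other groups. The cause of these shifts was not tested. Of 3142 alternative fits of the named genes, 3004 kept their call, 123 lost it and 15 gained it.

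Same-numbered samples did not deviate together, with correlations of -0.10 to 0.08 on day 3 and -0.05 to 0.03 in the Dnmt1 experiment. With the replicate block 19 genes were called for Mut against WT on day 3, 2 for KO against WT, 14 for KO against Mut, 48 for KO-labelled against Mut with the empty vector, and 11 and 5 for the Dnmt1 vector in Mut and KO-labelled samples. The other comparisons used WT columns without replicate numbers.

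Over all genes, the calls for KO against WT on day 3 went from 115 to 917 with DESeq2, 86 with edgeR and 0 to 706 with 1 sample left out, so its background moves with these choices. For Mut against WT edgeR called 1821 genes and DESeq2 2312, against 1836 by limma. Precision is limited by 2 or 3 samples per group and, for genes at few normalized counts in some groups, such as Epha6, Epha10, Plxna4 and Ntn5, by counting.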
